A study of Mus musculus with 4 samples.

Results

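Ero1l and 9 other genes of the unfolded protein response were followed in mouse oocytes with and without a knockdown of Ell3, a gene for an RNA polymerase II elongation factor. The 10 genes are Ero1l, Ero1lb, Xbp1, Herpud1, Hspa5, Hsp90b1, Atf6, Ern1, Pdia4 and Sdf2l1, and they were found by symbol among the 53677 gene symbols of the count files. They were chosen by their values in these libraries, the difference in counts between the knockdown and the control, since Ero1l, Herpud1 and Xbp1 were lower in the knockdown. Their differences between groups are therefore given as a description, with standard errors and no p-value, and nothing is supported with them. The libraries came from oocytes at the germinal vesicle (GV) stage, arrested in meiotic prophase, taken from females 48 h after 7.5 IU of the gonadotropin PMSG. One group was the control (Ctrl) and the other the knockdown (Ell3 KD). Each had 2 libraries of 5 pooled oocytes, and every oocyte in the comparison came from a hormone-primed female. Polyadenylated RNA was amplified with a Smart-seq2 protocol. The sources used here did not give the method of the knockdown, the strain and age of the females, or whether replicate libraries were from different animals.

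The unfolded protein response links the folding load of the endoplasmic reticulum (ER) to gene expression. Its sensors sit in the ER membrane: IRE1, encoded by Ern1, cuts the Xbp1 mRNA so that a strong transcription factor is made, ATF6 is cleaved in the Golgi and enters the nucleus, and PERK, encoded by Eif2ak3, slows translation and favours ATF4. Their targets include the chaperones BiP (Hspa5) and GRP94 (Hsp90b1), the disulfide isomerase Pdia4, the BiP cofactor Sdf2l1 and Herpud1, which serves ER-associated degradation. The oxidases encoded by Ero1l and Ero1lb pass oxidising equivalents to protein disulfide isomerase, so that disulfide bonds can form in secreted and membrane proteins. Oocytes at this stage have built a zona pellucida and secrete growth factors, both rich in disulfide bonds.

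Promoters of these genes are known for the ER stress response elements, which NF-Y binds together with ATF6 or XBP1. The 250 bases before the RefSeq start site (GRCm38.p6) were searched on both strands, for the 9 genes with an entry in the promoter table; Atf6 had none. ERSE, which is CCAAT, 9 bases of any kind and CCACG, was found in 3 of the 9 genes (Hspa5, Hsp90b1 and Ero1lb) and in 0.113% of 32851 promoters. ERSE-II, which is ATTGG, 1 base of any kind and CCACG, was found in Herpud1 and in 0.0304% of the promoters. UPRE, TGACGTGG, was in none of the 9 and in 0.563% of the promoters. The C/EBP-ATF response element (CARE), TGATGNAA, was in Herpud1 and in 3.45% of the promoters. The hypoxia response element core ACGTG, whose letters also lie inside UPRE and can overlap the end of the ERSE-type motifs, was in Ero1l, Herpud1 and Hspa5 and in 16.6% of the promoters. None of the 5 motifs was found in the windows of Xbp1, Ern1, Pdia4 and Sdf2l1. These matches describe letters only. In these windows Ero1lb had an ERSE and Ero1l had none. The printed sites of Ero1l and Hspa5 lie inside their GENCODE M21 gene models, which begin upstream of the RefSeq start site. Bases further upstream were not searched, so an ERSE before the GENCODE start of Ero1l could have been missed. Sites from these windows follow. Each is given as 30 bases on the strand of the gene, with the letters that match the motif in capitals:
Hspa5, ERSE, chr2:34772020-34772049, plus strand: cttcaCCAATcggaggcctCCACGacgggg
Hsp90b1, ERSE, chr10:86705632-86705661, minus strand: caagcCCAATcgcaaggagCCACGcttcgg
Hsp90b1, ERSE reversed, chr10:86705527-86705556, minus strand: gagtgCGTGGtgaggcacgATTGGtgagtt
Ero1lb, ERSE reversed, chr13:12565677-12565706, plus strand: ggcctCGTGGtcccgcctcATTGGccgccg
Herpud1, ERSE-II, chr8:94386368-94386397, plus strand: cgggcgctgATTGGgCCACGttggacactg
Herpud1, CARE reversed, chr8:94386306-94386335, plus strand: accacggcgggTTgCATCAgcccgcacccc
Ero1l, hypoxia core reversed, chr14:45318618-45318647, minus strand: cgcgcgccgctgCACGTccgcaggggaggc

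A second sequence sets what the Xbp1 counts can say. IRE1 cuts the Xbp1 mRNA at loops of the form CNGCAGN and removes a stretch of 26 bases, and the joined mRNA encodes the active factor. In the transcript Xbp1-201 of GENCODE M21 the excised bases lie in exon 4, inside the coding sequence, at chr11:5524279-5524304 on the plus strand of GRCm38. They are in capitals here, with 15 coding bases on either side:
Xbp1: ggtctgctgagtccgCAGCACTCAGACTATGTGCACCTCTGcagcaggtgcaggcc
A second pair of loop letters with the same spacing was found in exon 1. The deposited counts are sums per gene, so both forms of the mRNA enter the same Xbp1 count, and their ratio was not analysed here.

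The deposited counts summed to between 45131278 and 89632815 per library, and both Ell3 KD libraries were deeper than both Ctrl libraries. Counts were scaled to the library size with a factor for composition (CPM), so every difference is relative to the rest of each library. Fewer oocytes with a transcript and less of it in each oocyte cannot be told apart in such pooled RNA. The knockdown was visible in Ell3, at 8.12 and 9.79 CPM in Ctrl against 2.88 and 2.80 CPM in Ell3 KD, or 8.95 ± 1.18 against 2.84 ± 0.0558 CPM (SD, n = 2 per group, as for every ± after a group mean). It fell by 1.66 ± 0.14 on the log2 scale (SE; edgeR adjusted p = 6.04e-10). All 12 oocyte markers were present, with a summed level of 22010 to 22910 CPM. Markers of other cells were scarce but present: 15 genes of cumulus and granulosa cells summed to 54.5 and 57.0 CPM in Ctrl and 49.8 and 52.5 CPM in Ell3 KD, led by Nr5a2 and Cyp19a1, while Amh, Amhr2 and Foxl2 had no count in Ctrl and 3 to 9 counts in Ell3 KD. Of 9 blood and immune markers, 6 had no count in any library, among them 4 globin genes, and the sum was 2.71 and 3.04 CPM in Ctrl against 1.21 and 1.37 CPM in Ell3 KD, mostly from Cd68. The 9 markers of theca and stroma summed to 3.46 to 4.27 CPM. Within these sums single markers went both ways. Inha had 0.941 and 1.135 CPM in Ctrl and 2.179 and 2.475 CPM in Ell3 KD, whereas Nr5a2 had 26.59 and 26.24 against 22.28 and 22.47 CPM. The stroma marker Dcn had 0.766 and 0.952 CPM in Ctrl and 1.772 and 1.995 CPM in Ell3 KD, whereas Acta2 had 1.532 and 1.317 against 0.914 and 0.835 CPM. The part of these other cells in the results was not tested.

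The 10 genes spanned a wide range of levels, from the abundant chaperone Hspa5 to the sensor Atf6 (the plot of level per length). Levels are compared between genes as CPM per 1000 bases of annotated exon (RPKM), with lengths from GENCODE M21, which may differ from the annotation behind the counts. In Ctrl, Hspa5 stood at 138.9 ± 2.25 RPKM, above 97.6% of the genes tested. Pdia4 followed at 65.8 ± 1.55, Hsp90b1 at 41.2 ± 1.19, Ern1 at 36.6 ± 0.214, Sdf2l1 at 27.9 ± 0.788, Herpud1 at 15.1 ± 0.774, Xbp1 at 10.4 ± 0.535, Ero1lb at 5.96 ± 0.338, Ero1l at 4.47 ± 0.0888 and Atf6 at 2.62 ± 0.115 RPKM. Each gene's pair of Ctrl libraries lay apart from that of its neighbours in this order. In Ell3 KD the order was the same but for its lower end, where Ero1l, at 1.61 ± 0.0311 RPKM, stood below Atf6 at 2.72 ± 0.0834. The sensor gene Ern1 was thus far more abundant per length than the other sensor gene Atf6, with a ratio of 13.6 and 14.4 in Ctrl and 14.3 and 13.7 in Ell3 KD.

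**Figure D1:**
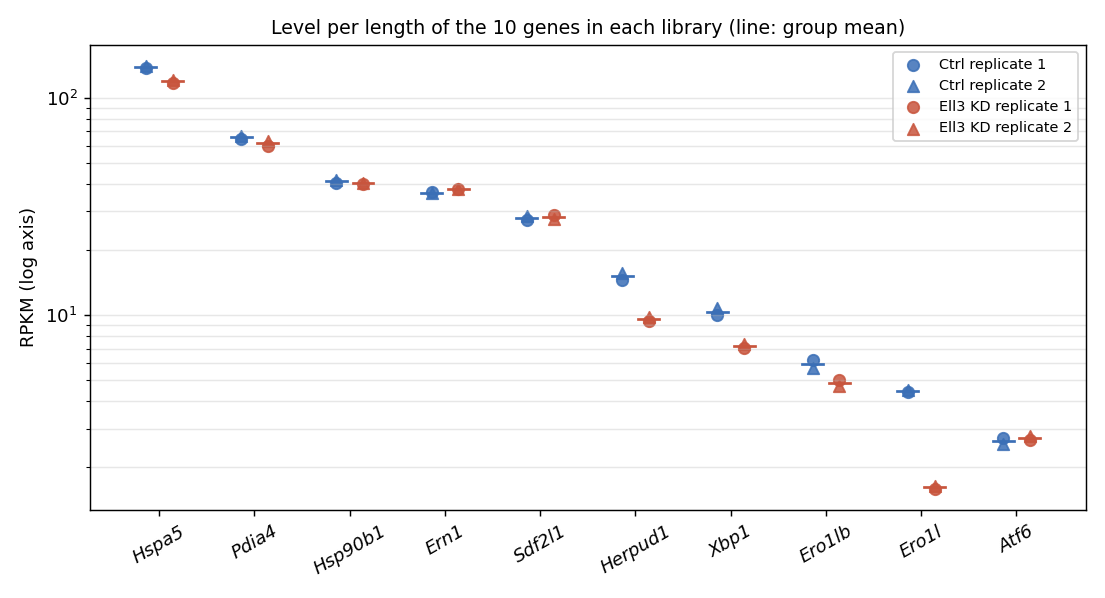
Level per length (RPKM, log axis) of the 10 genes in each of the 4 libraries, ordered by the Ctrl mean; circles are replicate 1, triangles replicate 2 and short lines group means of Ctrl (blue) and Ell3 KD (red). Hspa5 is highest at 138.9 RPKM in Ctrl, and Ero1l moves from 4.47 to 1.61 RPKM, below Atf6.

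Ero1l, the ER oxidase gene also known as Ero1a, had the widest gap between the groups. It had 23.3 and 23.9 CPM in the Ctrl libraries and 8.40 and 8.63 CPM in the Ell3 KD libraries. Both Ell3 KD libraries were low, and the gap between groups was many times the gap within either. This is 2.77-fold lower, a log2 fold change of -1.47 ± 0.08 (SE). Among the 9704 genes tested with a mean of at least 5 CPM it was the 8th lowest in log2 fold change. Among all 17879 genes tested, with those of lower counts, it ranked 651 from the lowest. Before scaling these were 1064 and 1182 reads for Ctrl, and 744 and 558 for Ell3 KD, so the raw count was lower although those libraries were deeper. Ero1l (chr14:45283087-45318771, minus strand, GRCm38) has 18 merged exons. None of them overlaps another annotated gene. No stretch of 31 bases of its coding transcripts recurs in the annotated transcripts of another gene, read in the sense direction. Matches to the opposite strand were not searched.

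Its paralog Ero1lb (Ero1b), known for high expression in cells that secrete insulin and digestive enzymes, differed far less. Its levels were 41.2 and 38.0 CPM in Ctrl and 33.5 and 31.3 CPM in Ell3 KD. Both Ell3 KD libraries lay below both Ctrl libraries, with a log2 fold change of -0.29 ± 0.06 (SE). Per length the pair was at similar levels in Ctrl, where Ero1lb exceeded Ero1l by a ratio of 1.41 and 1.26. In Ell3 KD the ratio was 3.17 and 2.88. Read in the sense direction, the coding transcripts of the paralogs shared 0 stretches of 31 bases with each other. Of those of Ero1lb (chr13:12565874-12611396, plus strand), however, 11.8% recur in other annotated genes, which makes part of its count less certain.

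The sensor genes among the 10 differed little between the groups. Ern1 (chr11:106394650-106487852, minus strand), the gene for IRE1, had 300.7 and 298.2 CPM in Ctrl and 310.3 and 311.8 CPM in Ell3 KD. Its Ell3 KD libraries lay just above its Ctrl libraries, by a log2 fold change of 0.05 ± 0.03 (SE), which became 0.15 once the trend of all genes on length and GC was removed. Atf6 (chr1:170704674-170867771, minus strand) had 24.9 and 23.4 CPM in Ctrl and 24.5 and 25.6 CPM in Ell3 KD, with overlapping groups and a log2 fold change of 0.05 ± 0.07 (SE), or 0.10 with that trend removed.

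Xbp1, the transcription factor gene whose mRNA is the substrate of IRE1, was lower in Ell3 KD. It had 32.4 and 34.9 CPM in Ctrl and 22.9 and 23.8 CPM in Ell3 KD. The groups did not overlap, and the log2 fold change was -0.53 ± 0.06 (SE), a 1.44-fold lower level. Since Ern1 was nearly level, the ratio of Ern1 to Xbp1 per length went from 3.68 and 3.39 in Ctrl to 5.39 and 5.20 in Ell3 KD. Xbp1 (chr11:5520659-5525893, plus strand) overlaps no other annotated exon.

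Herpud1, a membrane protein gene of ER-associated degradation and a textbook target of the pathway, had the second widest gap. It had 33.9 and 36.4 CPM in Ctrl and 21.9 and 22.9 CPM in Ell3 KD. Again both Ell3 KD libraries were low, at a 1.57-fold lower level and a log2 fold change of -0.65 ± 0.06 (SE). The gene (chr8:94386438-94395377, plus strand) carries the ERSE-II and CARE letters printed above.

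The chaperone genes differed less between the groups than Ero1l, Herpud1 and Xbp1. Hspa5 (chr2:34771970-34777547, plus strand), the gene for BiP, had 581 and 594 CPM in Ctrl and 494 and 512 CPM in Ell3 KD. These groups did not overlap, with a log2 fold change of -0.22 ± 0.03 (SE). Hsp90b1 (chr10:86690209-86705509, minus strand), the gene for GRP94, had 162.9 and 169.6 CPM in Ctrl and 162.0 and 163.9 CPM in Ell3 KD, a log2 fold change of -0.03 ± 0.04 (SE). Its groups overlapped. Of the exon length of Hsp90b1, 10.3% overlaps annotated genes on the opposite strand and 5.38% on the same strand. Of its stretches of 31 bases, 4.99% recur in other annotated genes. Sdf2l1 (chr16:17130138-17132383, minus strand), an ER protein gene that works with BiP and its J-domain partners, had 30.3 and 31.6 CPM in Ctrl and 32.1 and 30.8 CPM in Ell3 KD, a log2 fold change of 0.02 ± 0.06 (SE). The ratio of Hspa5 to Hsp90b1 per length was 3.40 and 3.34 in Ctrl and 2.91 and 2.98 in Ell3 KD.

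Pdia4 (chr6:47796141-47813430, minus strand), the gene for the protein disulfide isomerase ERp72, had 155.2 and 160.5 CPM in Ctrl and 144.5 and 151.3 CPM in Ell3 KD. Both Ell3 KD libraries were lower, but the nearest libraries of the groups lay closer together than the libraries within each group. The log2 fold change was -0.09 ± 0.04 (SE).

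In all, 7 of the 10 genes had a log2 fold change below 0, and so did 50.2% of the 17879 genes that passed the filter on low counts, which all 10 members passed. In 6 members, Ero1l, Ero1lb, Xbp1, Herpud1, Hspa5 and Pdia4, both Ell3 KD libraries lay below both Ctrl libraries, against 35.7% of all genes tested. The same 6 met the call used below (edgeR adjusted p under 0.05), and none met it in the other direction, against 42.9% of all genes called, 21.8% lower and 21.1% higher. Nothing is read from these counts, because the choice of the genes used the same contrast. The plot of fold changes shows that Ero1l, Herpud1, Xbp1 and Ero1lb lay below the interquartile range of all genes tested (-0.27 to 0.23) and that the other 6 lay inside it. That range also covers genes of low counts. Among the 9704 genes tested with a mean of at least 5 CPM, Hspa5 ranked 1739 from the lowest log2 fold change. There Pdia4 ranked 3248, Hsp90b1 4208, Sdf2l1 5143, Atf6 5643 and Ern1 5707. Counts thinned at random to the depth of the shallowest library gave log2 fold changes of -1.47 for Ero1l, -0.66 for Herpud1 and -0.53 for Xbp1. With the trend of all genes on transcript length and GC content removed, the values were -1.48, -0.64 and -0.51.

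**Figure D2:**
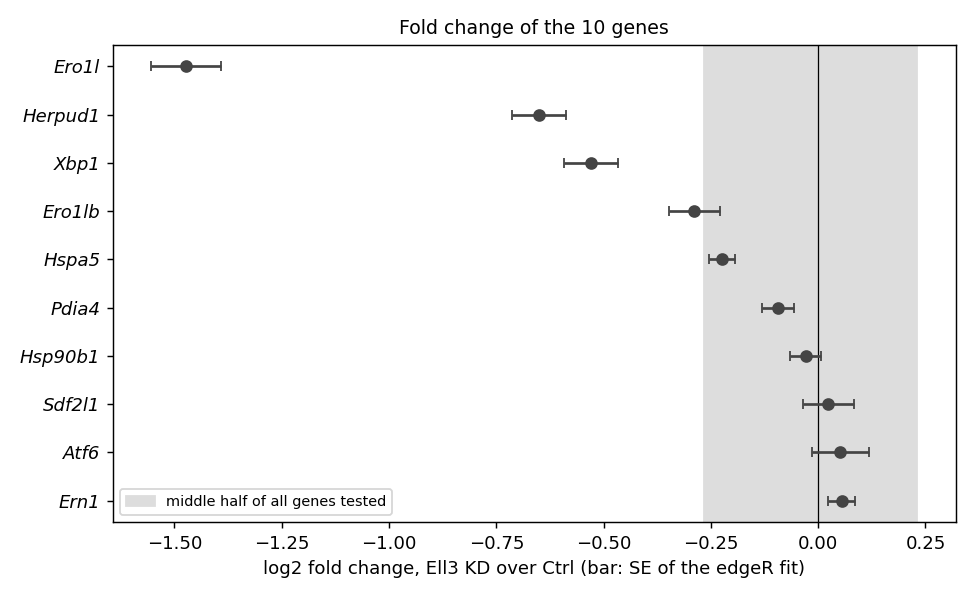
Log2 fold change of Ell3 KD over Ctrl for the 10 genes (points), with the standard error of the edgeR fit (bars) and the interquartile range of all genes tested (grey band, -0.27 to 0.23). Ero1l stands apart at -1.47, followed by Herpud1 at -0.65 and Xbp1 at -0.53.

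The genes most like Ero1l over the 4 libraries were Plxdc2, Scd3, Tcp11l2, Ell3 and Olfr1257. Likeness was the root mean square distance between log2 CPM values, each gene centred on its own mean, among 8765 candidate genes with a mean of at least 5 CPM. The nearest, the plexin domain gene Plxdc2, was at a distance of 0.0370, with 21.1 and 20.3 CPM in Ctrl and 7.25 and 7.33 CPM in Ell3 KD. The stearoyl-CoA desaturase gene Scd3 was at 0.0671, with 8.12 and 7.96 CPM in Ctrl and 2.92 and 2.68 CPM in Ell3 KD. Tcp11l2 was at 0.0873, the targeted gene Ell3 at 0.121 and the olfactory receptor gene Olfr1257 at 0.132. Close relatives of Scd3 and Olfr1257 exist in the genome, so their counts are less certain. Across 4 libraries in 2 groups such likeness mostly says that the genes are lower in Ell3 KD to a like degree. The other 9 genes of the response are not among them, which follows from their smaller fold changes.

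**Figure D3:**
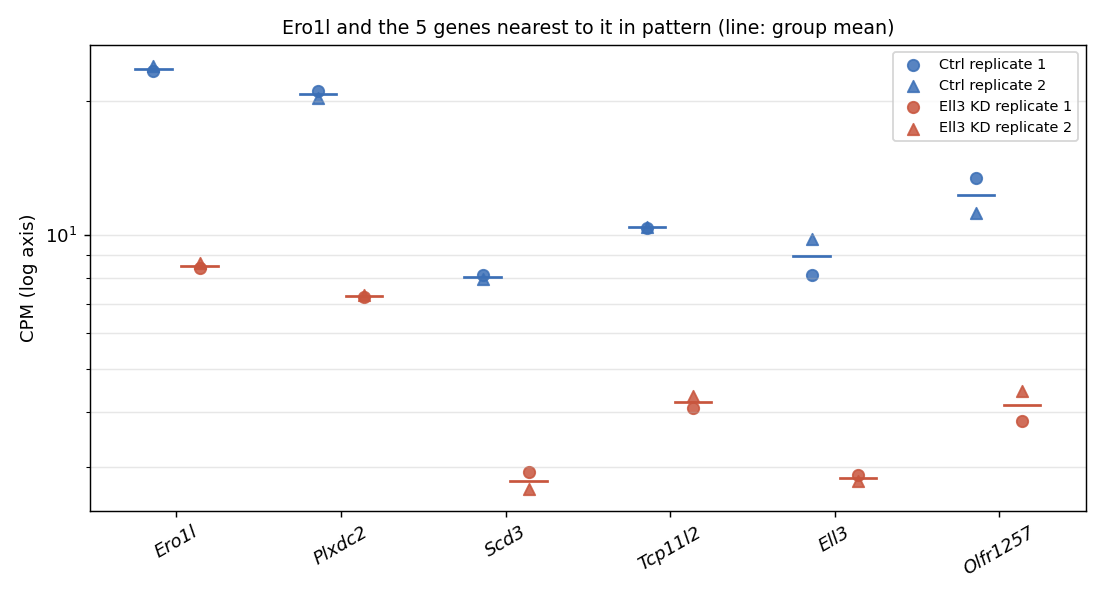
CPM (log axis) of Ero1l and the 5 genes nearest to it in pattern, in each of the 4 libraries (circles replicate 1, triangles replicate 2, short lines group means, Ctrl blue, Ell3 KD red). As the choice by likeness to Ero1l implies, all 6 genes have both Ell3 KD libraries below both Ctrl libraries. Ero1l is at 8.40 and 8.63 against 23.3 and 23.9 CPM.

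The rest of the pathway was followed in 7 lists that hold none of the 10 genes, with edgeR's quasi-likelihood test and Benjamini-Hochberg adjustment over all 17879 genes. Calls are read against 21.1% of all genes called higher and 21.8% called lower, and, among genes at 5 CPM or more, against 27.2% and 25.3%. The median log2 fold change over all genes tested was -0.0024. Among genes at 5 CPM or more the median was 0.0075 and varied with the length of the longest transcript. It was 0.205 for transcripts under 1000 bases, 0.065 in the next class of length and -0.028 in the class of longest transcripts. This trend was not removed from the values of the list genes, and its part in them was not tested. The p-values rest on how far libraries of a group differ, which may be technical spread only, and that spread was small. With an assumed coefficient of variation of 0.2 for every gene, 861 genes were called higher and 1103 lower in place of 3770 and 3906. Of the list genes chosen by the naming rule, Man1b1 alone was called under it.

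Of the other sensor genes and the factors that process sensors, 15 of 16 were tested, and 2 rose and 3 fell, with a median of -0.035. Tmbim6 (BAX inhibitor 1), an ER membrane protein gene that restrains IRE1, rose from 622.7 ± 4.04 to 755.3 ± 11.1 CPM, by 0.28 ± 0.03 on the log2 scale (SE; edgeR adjusted p = 2.27e-08). Rtcb, the RNA ligase gene that joins the cut Xbp1 mRNA, fell from 207.6 ± 4.99 to 185.2 ± 2.60 CPM (-0.16 ± 0.03, edgeR adjusted p = 4.27e-04), and Zbtb8os (archease), a cofactor gene of that ligase, rose by 0.26 ± 0.08 (edgeR adjusted p = 0.0114). Eif2ak3, the gene for PERK, went from 28.8 ± 1.06 to 25.4 ± 0.0709 CPM and fell by 0.19 ± 0.06 (edgeR adjusted p = 0.0179). Creb3l3, singled out after its value was seen, also passed the test, at 0.219 and 0.0416 CPM. The ATF6 proteases Mbtps1 and Mbtps2 and the paralog Atf6b had log2 fold changes of -0.04, 0.13 and 0.03 and missed the threshold (edgeR adjusted p = 0.694, 0.274 and 0.837). Of the exon length of Mbtps2, 28.4% overlaps Yy2 on the same strand. Eif2ak3 was not called by DESeq2 (adjusted p = 0.105), nor without Ctrl replicate 2 (edgeR adjusted p = 0.127), Ell3 KD replicate 1 (0.101) or Ell3 KD replicate 2 (0.0836), and the list had 1 lower call in place of 3 in each of these. Zbtb8os was not called by DESeq2 (adjusted p = 0.0696), nor without Ctrl replicate 1 (edgeR adjusted p = 0.0721) or Ell3 KD replicate 1 (0.187), which left 1 higher call in place of 2.

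In the PERK arm, 5 of 16 genes rose and 3 fell, with a median of 0.072. The transcription factor gene Atf4 fell from 85.6 ± 3.62 to 69.0 ± 2.11 CPM (-0.31 ± 0.04, edgeR adjusted p = 4.16e-06). The phosphatase subunit genes that reverse the block of translation went opposite ways, with Ppp1r15a (GADD34) rising by 0.19 ± 0.05 (edgeR adjusted p = 0.00179) and Ppp1r15b (CReP) falling by 0.36 ± 0.08 (edgeR adjusted p = 5.02e-04). Of the exon length of Ppp1r15b, 11.4% overlaps a gene on the opposite strand. Eif2s1, the gene for the subunit that PERK phosphorylates, rose by 0.15 ± 0.04 (edgeR adjusted p = 0.00136), and without Ell3 KD replicate 2 it was not called (edgeR adjusted p = 0.0568). Ddit3 (CHOP) went from 15.8 ± 0.313 to 18.1 ± 0.770 CPM and rose by 0.20 ± 0.08 (edgeR adjusted p = 0.0418), a call lost by DESeq2, by thinning and without any one of the 4 libraries (edgeR adjusted p between 0.0583 and 0.281 for the last). Dnajc3, the gene for the PERK inhibitor p58IPK, stood at 484.9 and 498.6 CPM (edgeR adjusted p = 0.296). Asns and Cebpb, which rose, and Atf3, which fell, were singled out after their values were seen and lay below 4 CPM. The 5 higher calls became 3 by DESeq2, 2 without Ctrl replicate 1 and 2 without Ell3 KD replicate 2.

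Among other ER chaperones and co-chaperones, 23 of 25 genes were tested, and 10 rose and 5 fell, with a median of 0.139. Creld2, an ER stress-inducible gene with disulfide isomerase activity, was the most abundant and fell from 1250.0 ± 23.8 to 1057 ± 14.6 CPM (-0.24 ± 0.03, edgeR adjusted p = 1.14e-07). The other 4 that fell were Sil1 (-0.24 ± 0.04, edgeR adjusted p = 9.75e-06) and Hyou1 (-0.23 ± 0.05, edgeR adjusted p = 7.49e-04), genes for nucleotide exchange factors of BiP, and Sec63 and Hspa13, singled out after their values were seen. Of the 10 that rose, the reductase gene Dnajc10 (ERdj5) rose by 0.29 ± 0.05 (edgeR adjusted p = 2.15e-05) and Sdf2, the paralog of Sdf2l1, by 0.22 ± 0.04 (edgeR adjusted p = 2.89e-05). The other 8, also singled out after their values were seen, were Cnpy2, Cnpy3, Cnpy4, the prolyl isomerase genes Fkbp2, Fkbp14, Ppib and Ppic, and Bcap31. The J-domain genes Dnajb11 and Dnajc1 were not called (edgeR adjusted p = 0.581 and 0.0949). Of the exon length of Sdf2, 16.0% overlaps Supt6 on the opposite strand. Manf, at 325.4 and 333.0 CPM, Dnajb9, at 9.90 and 10.6 CPM, and Tor1a, at 880.8 and 904.4 CPM, were not called (edgeR adjusted p = 0.462, 0.445 and 0.298). Dnajb9 and Manf are textbook targets of the response, as are Creld2 and Hyou1.

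Of the protein disulfide isomerase family and ER oxidation genes, 23 of 26 were tested, and 4 rose and 5 fell, with a median of -0.050. P4hb, the gene for the isomerase that ERO1 oxidises, had 279.8 ± 4.62 CPM in Ctrl and 266.0 ± 3.44 CPM in Ell3 KD and was not called (-0.07 ± 0.03, edgeR adjusted p = 0.0712). It passed without Ctrl replicate 2 (edgeR adjusted p = 0.0455). Of other oxidation genes, the peroxiredoxin gene Prdx4 and the sulfhydryl oxidase gene Qsox1 were not called either. Prdx4 had 0.23 ± 0.10 as its log2 fold change (edgeR adjusted p = 0.0756; 0.0205 without Ctrl replicate 1) and Qsox1 had -0.19 ± 0.10 (edgeR adjusted p = 0.11). Vkorc1, the vitamin K epoxide reductase gene, rose by 0.37 ± 0.04 (edgeR adjusted p = 9.62e-09), with 47.7% of its exon length shared with a gene on the same strand, and its paralog Vkorc1l1 fell by 0.42 ± 0.13 (singled out after its value was seen). Txndc11 fell by 0.43 ± 0.04 (edgeR adjusted p = 1.26e-08), Pdia5 by 0.40 ± 0.05 (edgeR adjusted p = 2.27e-07) and Txndc5, of whose exon length 11.9% overlaps genes on the opposite strand, by 0.20 ± 0.03 (edgeR adjusted p = 1.09e-05), whereas Pdia3, the glycoprotein isomerase gene, rose by 0.14 ± 0.04 (edgeR adjusted p = 0.00299). Tmx4, which fell, and Selenok and Txndc16, which rose, were singled out after their values were seen. Pdia6 stood at 139.8 and 133.3 CPM (edgeR adjusted p = 0.148; 0.0492 without Ctrl replicate 1). DESeq2 called 3 genes lower in place of 5.

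In the calnexin cycle and the glycosylation that feeds it, all 21 genes were tested, and 4 rose and 10 fell, with a median of -0.121. The lectin chaperone genes Canx and Calr fell by 0.12 ± 0.03 and 0.14 ± 0.04 (edgeR adjusted p = 0.00282 and 0.00337), Calr without a call when Ell3 KD replicate 1 was left out (edgeR adjusted p = 0.0635). The cargo lectin gene Lman2 fell from 453.5 ± 3.06 to 392.2 ± 15.5 CPM (-0.21 ± 0.03, edgeR adjusted p = 9.46e-06). Ganab, the catalytic subunit gene of glucosidase II, fell by 0.52 ± 0.06 (edgeR adjusted p = 3.04e-07), while Prkcsh, the gene for its other subunit, rose by 0.34 ± 0.09 and was singled out after its value was seen. The oligosaccharyltransferase genes also split, with Rpn2 falling by 0.37 ± 0.04 (edgeR adjusted p = 3.63e-08) and Dad1 rising by 0.35 ± 0.03 (edgeR adjusted p = 9.75e-09). Paralogs went opposite ways as well, all singled out after their values were seen: Stt3a, a catalytic subunit gene of that enzyme, rose by 0.17 ± 0.03 and Stt3b fell by 0.21 ± 0.03. Of the glucosyltransferase genes that send misfolded glycoproteins back to calnexin, the more abundant Uggt1 fell by 0.51 ± 0.08, from 20.2 to 14.2 CPM, and Uggt2 rose by 0.51 ± 0.15, from 4.04 to 5.78 CPM. Mogs and Mcfd2, singled out likewise, also fell. Man1b1, a mannosidase gene that marks glycoproteins for degradation, fell from 2.29 ± 0.288 to 0.578 ± 0.0354 CPM (-1.99 ± 0.28, edgeR adjusted p = 2.93e-06).

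Of genes for ER-associated degradation, to which Herpud1 belongs, 36 of 37 were in the files and tested, and 3 rose and 10 fell, with a median of -0.055. Several genes of the core machinery were not called: the ubiquitin ligase gene Syvn1 (HRD1), which binds HERPUD1, stood at 155.7 and 163.3 CPM, Derl1 at 25.8 and 27.2 CPM, Edem1 at 47.0 and 44.6 CPM and the Herpud1 paralog Herpud2 at 191.0 and 187.8 CPM (edgeR adjusted p = 0.122, 0.388, 0.234 and 0.591). Sel1l, the gene for the partner of HRD1, fell from 35.0 ± 0.877 to 29.2 ± 0.728 CPM (-0.26 ± 0.06, edgeR adjusted p = 7.43e-04). Rhbdd2 fell by 0.44 ± 0.06 (edgeR adjusted p = 1.53e-06), the p97 inhibitor gene Svip by 0.29 ± 0.06 (edgeR adjusted p = 1.44e-04) and the ubiquitin-conjugating enzyme gene Ube2j2 by 0.17 ± 0.04 (edgeR adjusted p = 3.36e-04). The abundant Rnf185 and Edem2 each fell by 0.09 ± 0.03 (edgeR adjusted p = 0.0219 and 0.0454), calls lost without Ell3 KD replicate 2 (edgeR adjusted p = 0.0716 and 0.470) among other settings. Derl2, Fam8a1 and Rhbdd1, which rose, and Erlin1, Erlin2, Nploc4 and Ube2g2, which fell, were singled out after their values were seen. Of these, Erlin2 had the widest log2 fold change of the list, -0.62 ± 0.14 (SE), from 6.31 CPM in Ctrl to 4.11 CPM in Ell3 KD. DESeq2 called 6 genes lower in place of 10, as did edgeR without Ell3 KD replicate 2.

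Ero1l is also known as a gene induced by hypoxia through HIF1, and genes of that response were followed beside it. Of 32 genes 27 were tested, and 8 rose and 3 fell, with a median of 0.051. Hif1a itself stood at 206.2 and 209.0 CPM (edgeR adjusted p = 0.673), and the glucose transporter gene Slc2a1 at 49.4 and 47.6 CPM (edgeR adjusted p = 0.413). The target genes Fam162a, Higd1a and Bnip3 rose by 0.29 ± 0.03, 0.20 ± 0.04 and 0.29 ± 0.06 (edgeR adjusted p = 8.47e-08, 1.07e-04 and 4.60e-04), each with 19.8% to 22.5% of its exon length overlapping a gene on the opposite strand. Egln2, a gene for an oxygen-sensing hydroxylase, fell by 0.33 ± 0.08 (edgeR adjusted p = 0.00185; 0.0640 without Ell3 KD replicate 2), while Egln1, the more abundant gene of that family, rose by 0.14 ± 0.05 (edgeR adjusted p = 0.0254; singled out after its value was seen). Mxi1 and Vhl, which fell, and Ankrd37, P4ha1, P4ha2 and Pfkfb4, which rose, were singled out in the same way. Vegfa lay at 0.207 and 0.247 CPM (edgeR adjusted p = 0.771). The 8 higher calls became 3 by DESeq2 and 5 without Ctrl replicate 2, Ell3 KD replicate 1 or Ell3 KD replicate 2, and the 3 lower calls became 1 without Ell3 KD replicate 2.

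**Figure D4:**
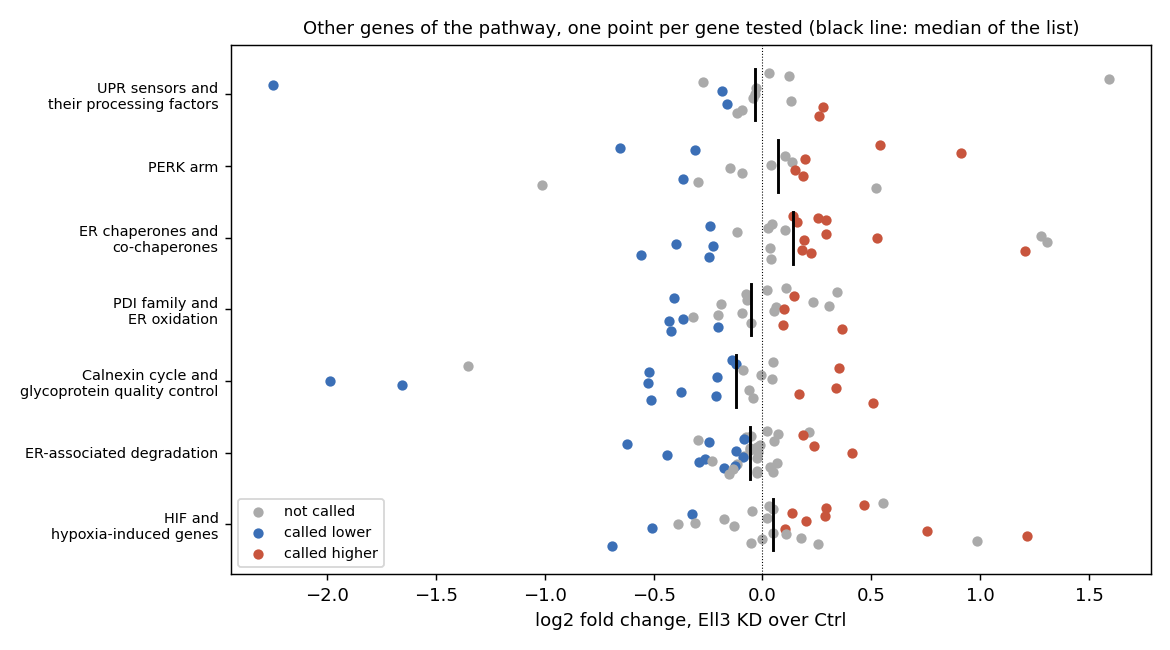
Log2 fold change of Ell3 KD over Ctrl for every tested gene of the 7 lists, one point per gene, coloured by the edgeR call (red higher, blue lower, grey not called), with the median of each list as a black line. Medians lie between -0.121 (calnexin cycle) and 0.139 (chaperones). The widest fold changes, down to -2.25 and up to 1.59, are in the list of sensors and come from genes with few counts. They are Creb3l3, at 0.219 CPM in Ctrl and 0.0416 CPM in Ell3 KD, and Creb3l1, at 0.105 and 0.325 CPM and not called.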

How the data were processed

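Gene counts of 4 Smart-seq2 libraries, 2 Ctrl and 2 Ell3 KD, were analysed, grouped by the sample titles. The authors deposited raw counts per gene symbol, and the submitters' processing notes name HISAT2 2.2.1.0, FastQC 0.11.5 and featureCounts, with mm10 as the build. Which annotation and strand setting they used, and how multi-mapped reads were treated, is not given in the sources used here. edgeR 4.0.16 in R 4.3.3 was used on all 4 libraries without covariates (filterByExpr, TMM factors, quasi-likelihood test, two-sided, called at an adjusted p under 0.05). The fit was also run on counts simulated with its own dispersion, which cannot show whether the libraries capture biological spread. CPM values use the total over the 17879 genes tested times the TMM factor. Log2 CPM used a prior count of 2. A gene without counts lies below 0.0665 CPM in the shallowest library, taking 3 counts as the limit; this allows for counting error alone, because PCR copies were not collapsed by molecular identifiers. Alternatives were DESeq2 1.42.0 (test, and size factors in edgeR), limma-voom (limma 3.58.1), 2 other filters, thinning, an assumed coefficient of variation of 0.2, the replicate block, leaving out each library, and, for the members, removal of the length and GC trend.

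The members and lists were chosen with earlier results of these data known. The text names the members, Ell3, the 2 most abundant and up to 4 called genes with the smallest p of each list, a set of regulators and partners fixed by role, and the 5 genes nearest to Ero1l in pattern. Symbols of predicted genes, Rik clones and pseudogenes were left out of that pattern search. Promoters came from RefSeq on GRCm38.p6, where Ero1l and Ero1lb were matched by synonym, and gene models from GENCODE M21 on GRCm38, which matched 96.8% of the genes tested. Protein sequences were not used here.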

Additional observations from a re-analysis of the deposited data

How the results depend on the processing

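Of the 10 members, 7 had a log2 fold change below 0 under every setting but 3, which gave 8: the removal of the length and GC trend, and the fits without Ctrl replicate 1 or Ell3 KD replicate 1 (range 7 to 8 with a library left out). Over all settings Ero1l ranged from -1.50 to -1.45, Herpud1 from -0.70 to -0.60 and Xbp1 from -0.58 to -0.48, while Sdf2l1 ranged from -0.04 to 0.06. Ern1 ranged from 0.05 to 0.15 and Atf6 from 0.00 to 0.10. Of the members, Ell3 and the list genes that the naming rule gave, no called gene changed sign. Genes singled out after their values were seen, and the genes near Ero1l in pattern other than Ell3, were not run under the alternatives. With an assumed coefficient of variation of 0.2 the calls over all genes were 861 higher and 1103 lower. In the lists, higher and lower, they were 1 and 1 for sensors, 1 and 0 for the PERK arm, 3 and 0 for chaperones, 0 and 0 for the disulfide isomerase family, 0 and 2 for the calnexin cycle, 0 and 0 for degradation and 1 and 0 for the hypoxia genes. DESeq2 gave 1 and 1 for sensors, 3 higher for the PERK arm, 3 lower for the isomerases, 6 lower for degradation and 3 higher for the hypoxia genes. With each library left out in turn, the higher calls ranged over 2797 to 3482 for all genes, 1 to 2 for sensors, 2 to 4 for the PERK arm, 8 to 9 for chaperones, 3 to 4 for isomerases, 3 to 4 for the calnexin cycle, 2 to 3 for degradation and 5 to 6 for the hypoxia genes. The lower calls ranged over 2922 to 3439, 1 to 2, 2 to 4, 5 to 5, 4 to 6, 9 to 11, 6 to 11 and 1 to 3, in the same order. A fit that keeps 1 library in a group assumes that it varies like the other group. The cause of these shifts was not tested.

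Libraries with the same replicate number did not deviate together (correlation 0.0294 over genes, 1 pair per group), so the numbers were not taken to pair them. With the replicate block 3894 genes were called higher and 3987 lower, and P4hb passed the test (edgeR adjusted p = 0.0314). With counts thinned to the depth of the shallowest library, Ddit3 was not called (edgeR adjusted p = 0.178).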
